A study of Mus musculus with 8 samples.

Results

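The elastic fibre genes described here were 10 genes taken by symbol from a table of 22274 mouse genes. They were Eln, Fbn1, Fbn2, Fbln1, Fbln2, Fbln5, Efemp1, Efemp2, Mfap4 and Mfap5. All 10 were in the table, and 9 passed the filter on low counts, which Fbn2 did not. RNA of primary murine cardiac fibroblasts was sequenced after treatment with TGF-β, the cytokine that turns fibroblasts into myofibroblasts, at 5 ng/ml for 24 h. There were 4 libraries labelled GFP, the virus control, and 4 labelled OEIRF7, for forced expression of the interferon regulatory factor IRF7. The study's reagents list an adenovirus with a CMV promoter and the human IRF7 gene, whereas GEO's description of the series has an adeno-associated virus, and every library received TGF-β, so that no library shows the untreated level. Neither strain nor age of the mice is in the labels, and nothing says whether the 4 libraries of a group came from separate cultures or animals, so the p-values measure only the spread between these libraries.

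Elastic fibres give skin, arteries, lung and heart their recoil. Tropoelastin, the product of Eln, is laid down on microfibrils built of fibrillins, brought there by fibulins and microfibril-associated proteins, and crosslinked by lysyl oxidases. In the heart these genes are active mainly in fibroblasts and in the walls of vessels.

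Total counts lay between 24888589 and 27095611 in the libraries labelled GFP and between 24454801 and 28658826 in those labelled OEIRF7, and the 10 genes together took 0.968% to 1.07% of a library. Mouse Irf7, the gene named in the label, was at 117.9 ± 23.96 CPM (counts scaled to 1000000 per library, SD, n = 4) under the label GFP and at 15.2 ± 0.82 under the label OEIRF7. The log2 fold change, OEIRF7 minus GFP, was -2.96 with a standard error of 0.12 (edgeR's quasi-likelihood test, Benjamini-Hochberg adjusted p = 7.72e-11). Counts of the mouse gene do not measure a human transgene, but with a virus that carries the mouse gene they go against the label, and each direction below compares libraries by their labels. Of 10 fibroblast markers, Col1a1 was high under the labels GFP and OEIRF7, at 4561 and 4070.0 CPM, as was Vim. Others were lower, such as Tcf21 at 58.3 and 23.1 CPM and Lum at 12.9 and 10.1 CPM. Of 8 endothelial markers Cdh5 was the highest, at 100 and 92.9 CPM under the labels GFP and OEIRF7, and Pecam1 came next at 45.6 and 45.2 CPM. At an adjusted p under 0.05 in the same test, Cdh5 was the 1 endothelial marker that was lower, and 3 were higher. Of 8 macrophage markers Lyz2 was the highest, at 202 and 235 CPM, and Cd68 came next at 31.3 and 36.3 CPM. Of 8 cardiomyocyte markers 7 were under 1 CPM.

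The promoters of 6 of the 10 genes were in the RefSeq table of the mouse genome GRCm38.p6, each as 300 bases from 250 before to 50 after a start site, and with alternative start sites these were 10 windows. Eln, Fbn2, Mfap4 and Mfap5 were not among them. The 4 windows below are shown because Fbln5 had the largest fold change of the 10 genes and because the windows of Fbn1, Efemp1 and Fbln5 held the matches to the interferon regulatory factor or AP-1 motif. They are written 5′ to 3′ on the strand of the gene. The first Fbln5 window lies outside the gene as GENCODE M21 draws it and the second inside. For neither were the bases just after the RefSeq start site found in a GENCODE M21 transcript of Fbln5. For the windows of the other genes they were found in a transcript of the gene. Capitals mark a match to the paired half-sites of interferon regulatory factors (GAAANNGAAA on either strand) in Fbn1 and at the second Fbln5 start site, and a match to the AP-1 motif (TGANTCA) in Efemp1.
Fbln5, first start site, chr12:101819070-101819369, minus strand: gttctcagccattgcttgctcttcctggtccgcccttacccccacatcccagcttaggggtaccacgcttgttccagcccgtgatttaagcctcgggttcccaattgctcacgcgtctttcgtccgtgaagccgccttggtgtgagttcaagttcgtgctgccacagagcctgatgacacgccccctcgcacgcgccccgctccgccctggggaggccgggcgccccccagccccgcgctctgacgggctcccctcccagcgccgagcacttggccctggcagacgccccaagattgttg
Fbln5, second start site, chr12:101818435-101818734, minus strand: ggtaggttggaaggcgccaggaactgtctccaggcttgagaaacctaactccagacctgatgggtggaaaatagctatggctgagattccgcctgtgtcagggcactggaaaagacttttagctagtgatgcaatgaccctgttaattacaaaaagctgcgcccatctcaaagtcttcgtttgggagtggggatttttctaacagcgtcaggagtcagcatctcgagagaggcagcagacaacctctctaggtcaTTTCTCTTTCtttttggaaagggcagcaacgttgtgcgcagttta
Fbn1, chr2:125506389-125506688, minus strand: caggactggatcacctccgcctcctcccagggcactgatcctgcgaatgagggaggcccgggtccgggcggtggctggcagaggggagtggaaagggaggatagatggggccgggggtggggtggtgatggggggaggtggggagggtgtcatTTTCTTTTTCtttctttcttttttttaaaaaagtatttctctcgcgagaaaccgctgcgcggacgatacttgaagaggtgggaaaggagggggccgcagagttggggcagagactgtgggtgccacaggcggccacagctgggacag
Efemp1, chr11:28852955-28853254, plus strand: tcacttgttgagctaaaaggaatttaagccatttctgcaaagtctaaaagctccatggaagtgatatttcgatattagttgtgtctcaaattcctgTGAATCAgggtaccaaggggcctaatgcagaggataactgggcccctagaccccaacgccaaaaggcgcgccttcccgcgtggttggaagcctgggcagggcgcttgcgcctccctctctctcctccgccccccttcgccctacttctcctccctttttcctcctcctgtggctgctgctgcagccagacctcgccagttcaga

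The paired half-sites were found in 2 of the 10 windows, starting at position -97 of Fbn1 within a run of pyrimidines and at position 6 of the second Fbln5 window, where position 1 is the first transcribed base. Of the 32851 windows of all genes, 3.44% held such a match. The longer interferon-stimulated response element (GAAANNGAAAC) was in none of the 10 and in 0.819% of all windows, and every match to it is also a match to the shorter motif. AP-1 was in 1 of the 10 windows, at position -154 of Efemp1, and in 7.81% of all. The SMAD box (CAGAC), the short element read by the SMAD factors of TGF-β signaling, was in 6 of the 10 windows, including both of Fbln5, and in 49.6% of all. TATAAA was in none of the 10 and in 13.6% of all. Each motif was searched on both strands. The first Fbln5 window held neither half-sites nor AP-1 and had 65.7% G and C, against 48.7% in the second and a median of 52.7% over all windows.

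Under the label OEIRF7, most of the elastic fibre genes were lower. Of the 9 tested, 6 were lower (Eln, Fbn1, Fbln1, Fbln5, Efemp1 and Efemp2) and 1 was higher (Mfap5) at an adjusted p under 0.05 in edgeR's quasi-likelihood test, and Fbln2 and Mfap4 did not pass. Over all 13533 tested genes, 29.9% were lower and 29.0% higher by the same rule. The median log2 fold change of the 9 was -0.20, beside 0.00 over all tested genes. With a log2 fold change past 1 as a further limit, 1 gene was lower (Fbln5) and 0 were higher, and 3.89% and 4.66% of all tested genes passed. By the limits of the study's methods, which are a fold change over 1.5 or under 0.66 with an unadjusted p under 0.05, 1 was lower (Fbln5) and 1 higher (Mfap5), beside 9.56% and 9.47% of all. Groups did not overlap in CPM for 5 lower genes and 1 higher gene, beside 27.0% and 26.8% of all tested genes. Without GFP replicate 3 the count past a log2 fold change of 1 became 2, through Fbn2. By the limits of the study's methods the count became 2 without GFP replicate 3 or OEIRF7 replicate 1, through Fbn2, and without OEIRF7 replicate 4, through Fbln1. Fbn2 is not tested with all 8 libraries, and in these settings with 1 library fewer it passed the filter through GFP replicates 1, 2 and 4, where it is high, so these counts are not a result about it. In bulk RNA, fewer cells that express a gene and less RNA of it per cell cannot be told apart.

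**Figure D1:**
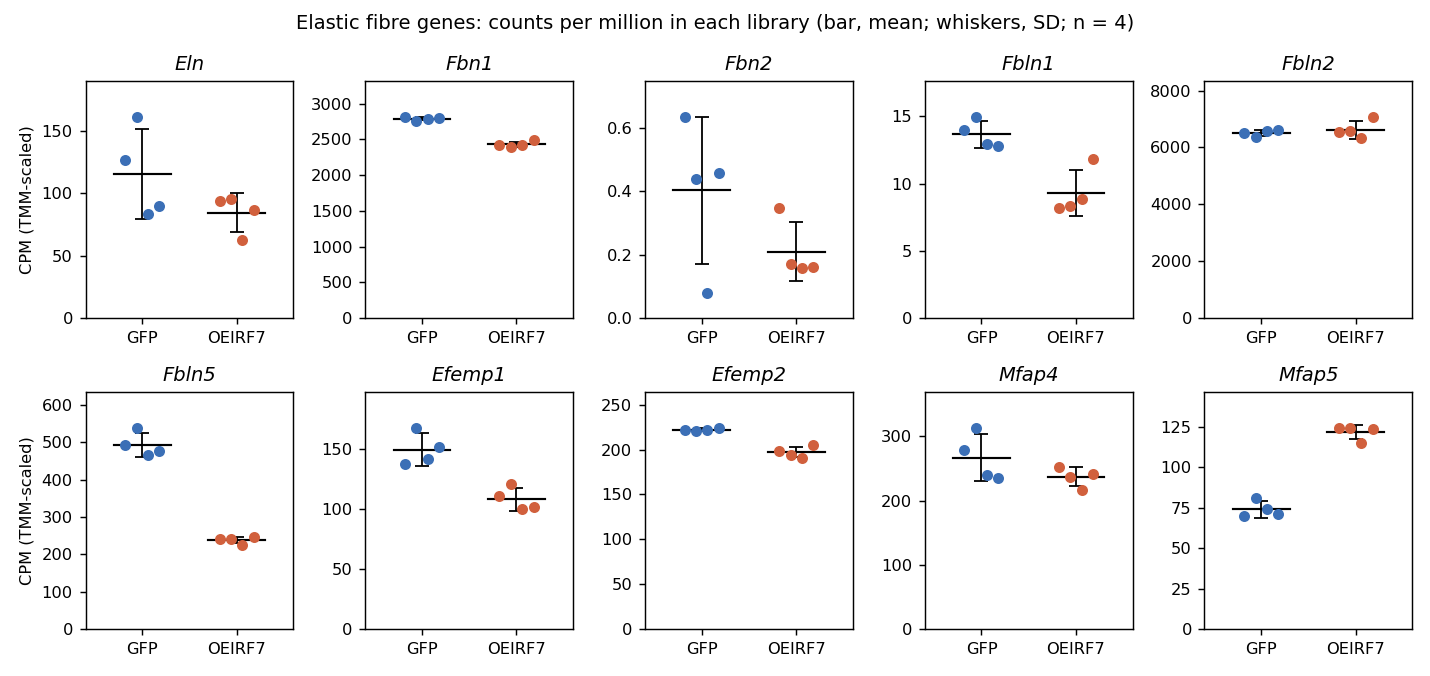
CPM after TMM scaling of each of the 10 genes in each library, 1 point per library, with the mean as a bar and the SD as whiskers (n = 4). The points of Fbln5 labelled OEIRF7 lie between 225 and 245 CPM, below all 4 labelled GFP, those of Mfap5 lie above all 4, and those of Eln, Fbn2, Fbln2 and Mfap4 overlap.

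Elastin itself, the rubber-like core of the fibre, was lower, and under the label GFP it varied more between libraries than the other 8 tested genes. Eln (ENSMUSG00000029675, chr5:134702593-134747323, minus strand, GRCm38) was at 127, 161, 83.7 and 89.5 CPM in GFP replicates 1 to 4. Under the label OEIRF7 it was at 94.2, 95.4, 62.4 and 86.5 CPM. The groups overlapped, since GFP replicates 3 and 4 lay below OEIRF7 replicates 1 and 2. The means were 115 ± 36.0 and 84.6 ± 15.3 CPM (SD, n = 4), a log2 fold change of -0.45 (standard error 0.17, 95% interval -0.82 to -0.07, edgeR adjusted p = 0.040). Permuting the libraries gave p = 0.26 (exact two-sided test on log2 CPM, without regard to replicate number). At each replicate number the library labelled OEIRF7 was below the one labelled GFP. With the replicate number as a block the log2 fold change was -0.42 (edgeR adjusted p = 0.000182), but the labels do not say whether equal numbers are pairs. The SD was 31.2% of the mean under the label GFP and 18.1% under OEIRF7, beside medians of 6.21% and 6.45% over all tested genes. The call was lost in DESeq2 (adjusted p = 0.132) and in edgeR without GFP replicate 1 (0.0992), GFP replicate 2 (0.157), OEIRF7 replicate 3 (0.0943) or OEIRF7 replicate 4 (0.0685), and without GFP replicate 2 the log2 fold change was -0.24. Exons of Eln share 267 bases with Gm30003 on the opposite strand, and the strand setting of the counting is not given in the sources used here.

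Of the fibrillins, the large glycoproteins that form the microfibril, Fbn1 carried nearly all the reads. Fbn1 (ENSMUSG00000027204, chr2:125300594-125507993, minus strand) was at 2811, 2761, 2783 and 2795 CPM under the label GFP and at 2418, 2390.5, 2423 and 2488 CPM under OEIRF7. Every library labelled OEIRF7 was below every library labelled GFP, and the spread within each group was small. The fall was slight, from 2788 ± 20.9 to 2430.0 ± 41.2 CPM (SD, n = 4), with a log2 fold change of -0.20 (standard error 0.02, edgeR adjusted p = 3.36e-06, exact permutation p = 0.029, the smallest that 4 against 4 libraries allow). Gm9913 on the opposite strand shares 2442 exon bases with Fbn1.

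Fbn2, the fibrillin known best from the embryo, lies on chromosome 18 and was near the detection limit. Its counts were 17, 11, 2 and 12 under the label GFP and 9, 5, 4 and 4 under OEIRF7, and the groups overlapped. It did not pass the filter. With a minimum of 1 count in total its log2 fold change was -0.94 (standard error 0.57, edgeR adjusted p = 0.20). Without GFP replicate 3, its lowest library, it passed the filter through the remaining libraries labelled GFP and was then called lower (log2 fold change -1.27, adjusted p = 0.0205).

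Fbln5 had the largest fold change of the 10 genes. It encodes fibulin-5, which binds tropoelastin, lysyl oxidase-like enzymes and integrins and is needed to assemble elastic fibres in mice. Fbln5 (ENSMUSG00000021186, chr12:101746565-101819055, minus strand) was at 492, 538, 465 and 477 CPM in the libraries labelled GFP. In those labelled OEIRF7 it was at 241, 239, 225 and 245 CPM. The groups were far apart, with the highest OEIRF7 library well under the lowest GFP library. The means were 493 ± 31.9 and 238 ± 8.65 CPM (SD, n = 4), a ratio of 0.482 (95% interval 0.451 to 0.515) and a log2 fold change of -1.05 (standard error 0.04, edgeR adjusted p = 1.01e-10, exact permutation p = 0.029). Leaving out any 1 library kept the log2 fold change between -1.08 and -1.01.

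Efemp1 and Efemp2 encode fibulin-3 and fibulin-4, of which fibulin-4 carries lysyl oxidase to elastin. Efemp1 (ENSMUSG00000020467, chr11:28853204-28926743, plus strand) was at 138, 168, 142 and 152 CPM under the label GFP and at 111, 121, 99.8 and 101 CPM under OEIRF7. The groups did not overlap, and the means fell from 150 ± 13.4 to 108 ± 9.61 CPM (SD, n = 4), a log2 fold change of -0.47 (standard error 0.07, edgeR adjusted p = 2.4e-05). Its promoter window was the one with the AP-1 match.

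Efemp2 (ENSMUSG00000024909, chr19:5473954-5482517, plus strand) changed less and was among the least variable of the 10 genes. It was at 222, 220.3, 222 and 224 CPM under the label GFP and at 199, 194, 191 and 205 CPM under OEIRF7. All 4 libraries labelled OEIRF7 were lower, with a log2 fold change of -0.17 (standard error 0.03, edgeR adjusted p = 0.000311). Efemp2 shares 173 exon bases with Mus81 on the opposite strand, which was at 10.7 and 9.55 CPM (log2 fold change -0.17, edgeR adjusted p = 0.131).

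Fbln1 and Fbln2 encode the larger fibulins, which bind fibronectin, proteoglycans and basement membrane proteins. Fbln1 (ENSMUSG00000006369, chr15:85205949-85286535, plus strand) was low, at 13.96, 14.9, 12.9 and 12.8 CPM under the label GFP and at 8.22, 8.31, 8.87 and 11.8 CPM under OEIRF7. OEIRF7 replicate 4 came close to the lowest GFP library, and the groups did not overlap. The log2 fold change was -0.56 (standard error 0.11, edgeR adjusted p = 0.00046), and it was -0.69 without OEIRF7 replicate 4.

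Fbln2 (ENSMUSG00000064080, chr6:91212455-91272540, plus strand) was the most abundant of the 10 genes and one of the most abundant of all, with 0.631% to 0.712% of the counts of a library. It was at 6508, 6365, 6587 and 6615 CPM under the label GFP and at 6533, 6573, 6325 and 7063 CPM under OEIRF7. The groups overlapped, and OEIRF7 held both the lowest and the highest library. The log2 fold change was 0.02 (standard error 0.03, edgeR adjusted p = 0.531), and the 95% interval of the ratio, 0.972 to 1.06, bounds a change in either direction. Without OEIRF7 replicate 4 the log2 fold change was -0.01.

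The remaining 2 genes encode microfibril-associated proteins, and they did not move together. Mfap5 encodes a small glycoprotein that binds fibrillins and was the one gene that rose. Mfap5 (ENSMUSG00000030116, chr6:122505845-122529290, plus strand) was at 69.975, 81.3, 74.2 and 70.9 CPM in the libraries labelled GFP and at 124, 124, 115 and 124 CPM in those labelled OEIRF7. All 4 libraries labelled OEIRF7 were above all 4 labelled GFP, at means of 122 ± 4.57 and 74.1 ± 5.15 CPM (SD, n = 4). The ratio was 1.65 (95% interval 1.53 to 1.77), and the log2 fold change 0.72 (standard error 0.05, edgeR adjusted p = 1.04e-08, exact permutation p = 0.029).

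Mfap4 encodes a fibrinogen-related protein that binds tropoelastin and fibrillin-1. Mfap4 (ENSMUSG00000042436, chr11:61485431-61488900, plus strand) was at 278, 313, 239.5 and 236 CPM under the label GFP and at 252, 237, 217 and 242 CPM under OEIRF7. The groups overlapped, with GFP replicates 1 and 2 above all other libraries, the same pair that was highest for Eln. The log2 fold change was -0.17 (standard error 0.08, edgeR adjusted p = 0.067). It passed at -0.22 (adjusted p = 0.0252) without GFP replicate 3 and at -0.23 (0.0183) without GFP replicate 4. Mfap4 shares 89 exon bases with Mapk7 on the opposite strand, which was at 32.8 and 30.9 CPM (log2 fold change -0.09, edgeR adjusted p = 0.189).

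**Figure D2:**
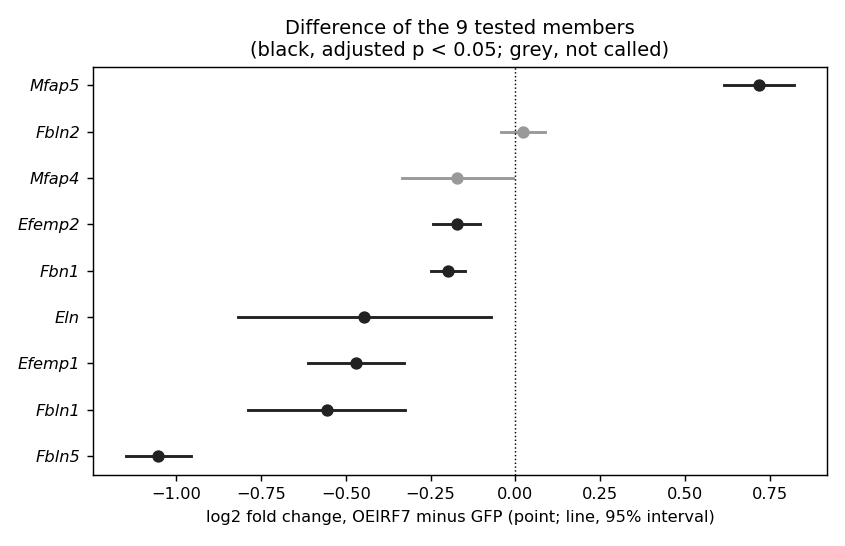
Log2 fold change, OEIRF7 minus GFP, of the 9 tested genes from edgeR's quasi-likelihood test, with the 95% interval as a line and genes with an adjusted p under 0.05 in black. Fbln5 lies at -1.05 and Mfap5 at 0.72, Eln has the widest interval (-0.82 to -0.07), and Fbln2 lies at 0.02.

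Within a group, the same libraries were often the extremes. GFP replicate 2 was the highest of its group for 6 of the 10 genes (Eln, Fbln1, Fbln5, Efemp1, Mfap4 and Mfap5) and the lowest for 3 (Fbn1, Fbln2 and Efemp2). OEIRF7 replicate 3 was the lowest of its group for 8 of the 10, all but Fbn1 and Fbln1. Without GFP replicate 2, 5 of the genes were called lower and 1 higher, and without OEIRF7 replicate 3 the counts were again 5 and 1.

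Levels were compared between genes in FPKM, which are divided by gene length. Under the label GFP the order was Fbln2 (1409 ± 23.2 FPKM, SD, n = 4), Fbn1 (278 ± 1.76), Fbln5 (184 ± 13.3), Mfap4 (156 ± 21.4), Efemp2 (138 ± 1.10), Efemp1 (77.0 ± 7.05), Mfap5 (56.5 ± 4.27), Eln (32.0 ± 10.5), Fbln1 (4.95 ± 0.365) and Fbn2 (0.0375 ± 0.021). The libraries of Fbln5 and Mfap4 overlapped, as did those of Mfap4 and Efemp2, and no other neighbours in this order did. Fbln2 ranked 21 of all genes in the table under the label GFP and 19 under OEIRF7. Elastin ranked only 2446 and 3207.

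Under the label OEIRF7 the order of the middle genes was another. Fbln5, at 91.3 ± 3.76 FPKM (SD, n = 4), moved from rank 330 to rank 819 of all genes and overlapped Mfap5, at 91.8 ± 3.39 FPKM, which moved from rank 1329 to rank 810. Mfap4 (140.2 ± 9.57 FPKM) and Efemp2 (124 ± 2.71 FPKM) overlapped and came ahead of both. With CPM per kilobase of annotated exons in place of FPKM, Fbln2, Fbn1 and Mfap4 kept places 1 to 3 over all libraries, Fbln5 moved from place 4 to place 6 and Efemp1 from place 7 to place 4.

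**Figure D3:**
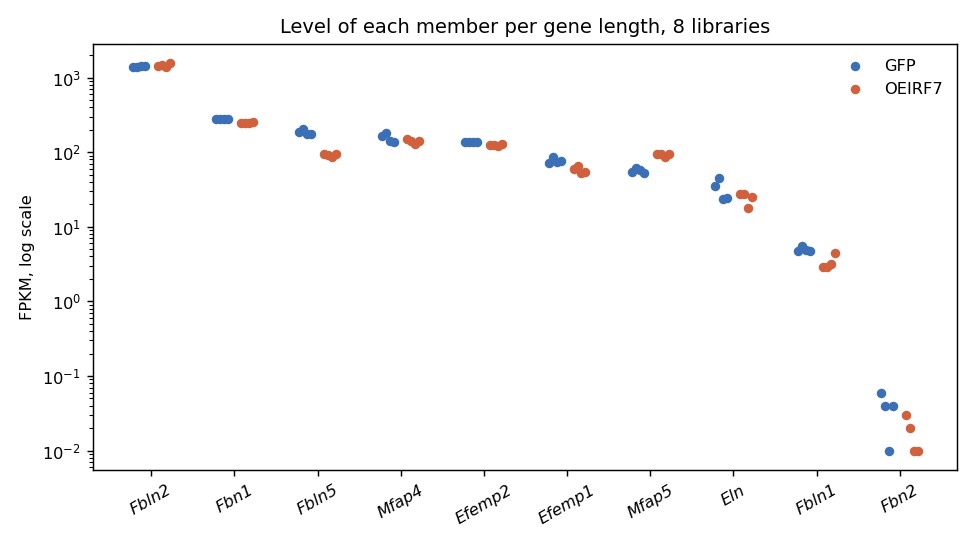
FPKM of each of the 10 genes in each of the 8 libraries on a log axis, in the order of the level under the label GFP. Fbln2 lies at means of 1409 and 1457 FPKM, Fbn2 below 0.1 FPKM, and Fbln5 and Mfap5 lie apart under the label GFP and overlap under OEIRF7.

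Of the FPKM summed over the 10 genes, Fbln2 made up 60.4% ± 1.74 under the label GFP and 65.1% ± 0.746 under OEIRF7 (SD, n = 4). The share of Fbln5 fell from 7.90% ± 0.46 to 4.08% ± 0.076 (SD, n = 4), and that of Mfap5 rose from 2.42% ± 0.157 to 4.11% ± 0.0977 (SD, n = 4). Elastin held 1.36% ± 0.428 and 1.09% ± 0.181 (SD, n = 4). Among the fibulins other than Fbln2, Fbln5 held 45.6% ± 1.05 of the summed FPKM under the label GFP and 33.0% ± 0.524 under OEIRF7 (SD, n = 4). Efemp2 held 34.1% ± 1.49 and 45.0% ± 1.01 (SD, n = 4). By CPM per kilobase of exons Efemp1 was the highest of these 4 fibulins in both groups, at 73.5 and 53.1, beside 71.4 and 34.4 for Fbln5 and 58.6 and 52.0 for Efemp2, so their order depends on the measure of length. These shares and levels are values without a test.

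The ratio of 2 genes within a library does not depend on the library's size. Mfap4, which encodes a fibrinogen-related protein, and Mfap5 share a name but are not close relatives. The log2 ratio of Mfap4 to Mfap5 (CPM + 0.5) was 1.98, 1.94, 1.68 and 1.73 under the label GFP and 1.02, 0.93, 0.91 and 0.96 under OEIRF7. The groups were apart by -0.88, with an exact two-sided permutation p of 0.029 and 0.057 after Benjamini-Hochberg adjustment over the 4 pairs tested. The log2 ratio of Fbln1 to Fbln2 was -8.85 ± 0.13 under the label GFP and -9.41 ± 0.18 under OEIRF7 (SD, n = 4), a difference of -0.56 with the same permutation p values of 0.029 and 0.057. The ratio of Efemp1 to Efemp2 overlapped between groups, at -0.57 ± 0.13 and -0.87 ± 0.14 (SD, n = 4, exact permutation p = 0.057, adjusted 0.076). For Fbn1 to Fbn2 the difference was 0.12 (exact permutation p = 0.71, adjusted 0.71), where Fbn2 lay near or under the added 0.5 CPM. With 4 against 4 libraries no pair could pass an adjusted p of 0.05 unless more pairs reached the smallest p.

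**Figure D4:**
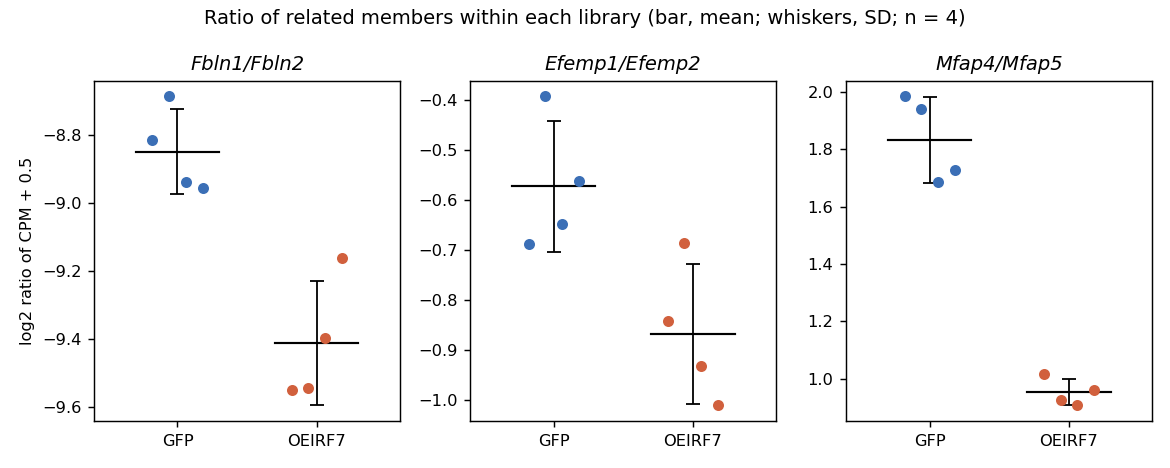
Log2 ratio of 3 pairs of genes (CPM + 0.5) in each library, with the mean as a bar and the SD as whiskers (n = 4). The Mfap4 to Mfap5 ratio lies between 1.68 and 1.98 under the label GFP and between 0.91 and 1.02 under OEIRF7, the Fbln1 to Fbln2 ratio is lower in all libraries labelled OEIRF7, and the Efemp1 to Efemp2 ratios overlap.

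The genes whose pattern over the 8 libraries was most like that of Fbln5, by the root mean square difference of log2 CPM centred on each gene's mean among 10311 genes, were Tmem98 (0.0261), Cdk1 (0.0395) and Igf1 (0.0476). Their log2 fold changes were -1.08, -1.12 and -1.10, near that of Fbln5, so this likeness mostly repeats the difference between the groups. For Eln they were Ccdc68 (0.134), Lum (0.136) and Tm7sf2 (0.137). The nearest genes of Eln were thus farther from it than those of Fbln5 from Fbln5.

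Of 52 other genes listed for elastic fibre assembly, binding and turnover in 6 lists, 46 were tested. By the same edgeR test 19 were higher and 14 lower, with a median log2 fold change of 0.05. Over all tested genes 29.0% were higher and 29.9% lower, and the counts of each list below stand beside these shares. Among 5 crosslinking enzymes, 2 were higher and 2 lower. Lox, the lysyl oxidase that starts the crosslinks of elastin and collagen, rose slightly from 4114 ± 91.8 to 4424 ± 127 CPM (SD, n = 4, log2 fold change 0.11, standard error 0.03, edgeR adjusted p = 0.00315). Loxl1, the crosslinking enzyme that fibulin-5 brings to elastin, was at 552 ± 19.5 and 573 ± 19.1 CPM (SD, n = 4, log2 fold change 0.06, edgeR adjusted p = 0.183), with overlapping groups.

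Of the 4 latent TGF-β binding proteins, relatives of the fibrillins, 3 were higher and 0 lower. Ltbp4, which binds fibulin-5 and takes part in elastic fibre assembly, did not pass, at 60.5 ± 6.19 and 59.2 ± 6.16 CPM (SD, n = 4, log2 fold change -0.03, edgeR adjusted p = 0.731). Of 14 other genes, listed as Mfap genes by symbol, as emilins or as fibulin relatives, 12 were tested, 2 of them higher and 4 lower. The lower genes beside Emilin1 were Mfap1a, Mfap3 and Mfap3l, and an Mfap symbol alone does not place a product in the microfibril. Emilin1, a glycoprotein at the border of elastin and microfibrils, fell from 272 ± 11.1 to 220.5 ± 11.6 CPM (SD, n = 4, log2 fold change -0.31, standard error 0.04, edgeR adjusted p = 1.83e-05). Mfap2, the closest relative of Mfap5, was close to the detection limit, with 0, 7, 5 and 9 counts under the label GFP and 1, 1, 3 and 8 under OEIRF7.

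ADAMTS and ADAMTS-like proteins bind fibrillin microfibrils. Of 10 listed, 8 were tested, 3 of them higher and 4 lower. Adamtsl3 fell from 168 ± 6.71 to 56.4 ± 5.11 CPM (SD, n = 4, log2 fold change -1.57, standard error 0.06, edgeR adjusted p = 2.1e-11). Adamtsl2, whose product binds fibrillin-1 and latent TGF-β binding protein, fell from 67.4 ± 9.06 to 24.5 ± 3.43 CPM (SD, n = 4, log2 fold change -1.46, standard error 0.10, edgeR adjusted p = 1.37e-08). In neither gene did the groups overlap, and both log2 fold changes were larger in size than that of Fbln5.

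Of 10 proteases that can degrade elastin, 8 were tested, 5 of them higher and 1 lower. Mmp12, macrophage elastase, rose from 20.7 ± 3.02 to 73.1 ± 7.13 CPM (SD, n = 4, log2 fold change 1.82, standard error 0.09, edgeR adjusted p = 4.23e-10). Mmp9, a gelatinase, had 2, 3, 4 and 10 counts under the label GFP and 276, 367, 334 and 205 under OEIRF7, a log2 fold change of 5.88 (standard error 0.27, edgeR adjusted p = 2.35e-10) that rests on few counts in the first group. Elane and Mmp7 had no count in any library.

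Among 9 receptors of elastic fibre proteins and parts of the elastin receptor complex, 4 were higher and 3 lower. Itgb3, the integrin subunit that pairs with the product of Itgav to bind fibulins and fibrillin-1, rose from 12.4 ± 0.326 to 39.7 ± 3.79 CPM (SD, n = 4, log2 fold change 1.68, standard error 0.07, edgeR adjusted p = 1.03e-10). Itga5, which pairs with the product of Itgb1 to bind fibronectin and fibrillin-1, rose from 288 ± 25.2 to 785 ± 44.1 CPM (SD, n = 4, log2 fold change 1.45, standard error 0.06, edgeR adjusted p = 4.96e-11).

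**Figure D5:**
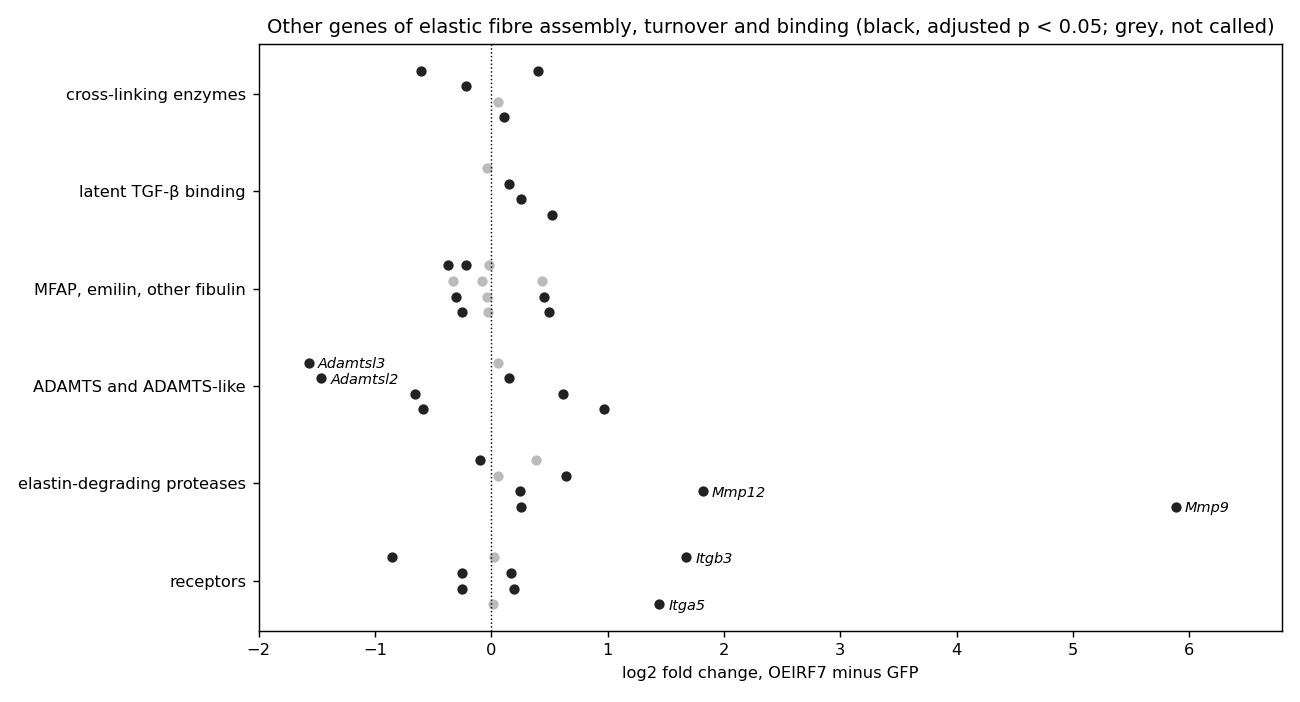
Log2 fold change, OEIRF7 minus GFP, of the 46 tested genes in 6 lists of elastic fibre assembly, turnover and binding, with genes of an adjusted p under 0.05 in black and those with a log2 fold change past 1 and a mean above 5 CPM named. Adamtsl3 lies at -1.57 and Mmp9 at 5.88, and each list but that of the latent TGF-β binding proteins holds called genes in both directions.

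By the Gene Ontology terms in the table, "elastic fiber" held 5 genes, all of them among the 10 (Eln, Fbln1, Fbln5, Efemp2 and Mfap4). Of these, 4 were lower and 0 higher, which repeats calls already counted above, and Mfap5 was not under this term. Over all tested genes 29.9% were lower and 29.0% higher. "Microfibril" held 13 genes, 5 of them among the 10, and of 11 tested 4 were higher and 4 lower. Of 12 tested genes of "elastic fiber assembly", 4 were higher and 5 lower. "Calcium ion binding", which fibrillins and fibulins share through their EGF-like domains, held 720 genes, 7 of them among the 10, and of 455 tested 130 were higher and 154 lower.

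Marker lists of the cells in the culture held called genes as well, beside 29.0% higher and 29.9% lower over all tested genes. Of 8 myofibroblast markers 7 were lower and 1 higher, which was Cilp at a log2 fold change of 2.08. The lower ones were Myl9 at -2.49, Acta2 at -1.83, Cnn1 at -1.30, Tagln at -0.98, Postn at -0.38, Fn1 at -0.16 and Ccn2 at -0.14. The summed level of the 8 was 20720 to 22060 CPM under the label GFP and 16240 to 18080 CPM under OEIRF7. Of 10 fibroblast markers 2 were higher and 5 lower, with sums of 13560 to 14010 and 12610 to 13610 CPM. Of 8 tested mural cell markers, which mark the vessel wall cells that also make elastin, 3 were higher and 4 lower, with sums of 206.4 to 226.3 and 216.9 to 237 CPM. Of 8 macrophage markers 4 were higher and 0 lower, with sums of 279.4 to 333.7 and 338.8 to 381.9 CPM, and Mmp12 is also known from macrophages. Endothelial markers summed to 229.4 to 241.3 and 233.3 to 259.8 CPM (3 of 8 higher, 1 lower), and epicardial and mesothelial markers to 144.2 to 159.4 and 119.2 to 124.2 CPM (2 of 6 tested higher, 2 lower). Cardiomyocyte markers summed to 9.802 to 13.54 and 7.664 to 9.846 CPM, with Tnnt2 the 1 tested gene of 8. No marker of these lists was at 0 in every library, and their part in the changes of the elastic fibre genes was not tested.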

How the data were processed

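RNA-seq was analysed for mouse cardiac fibroblasts in primary culture, all with TGF-β. According to the methods, the authors trimmed reads with Trimmomatic, mapped them to GRCm38 with HISAT2, obtained counts with HTSeq-count and FPKM with Cufflinks. The authors deposited raw counts per gene and FPKM, normalized for gene length and depth. Tool versions and the strand setting are not given in the sources used here, and the labels name other extraction and library kits than the paper. The authors' group means, log2 fold changes, p-values and FDR were deposited too and were not used.

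Counts were tested in R 4.3.3 with edgeR 4.0.16 (filterByExpr, TMM, glmQLFit and glmQLFTest, all 8 libraries, no covariate), with Benjamini-Hochberg adjustment over all tested genes. Standard errors are the log2 fold change divided by the square root of F. CPM are scaled by TMM, with factors of 0.9887 to 1.014. Log2 CPM for permutation tests and likeness used a prior count of 2. No pair of replicates was a repeated library (chi-square per degree of freedom 2.91 to 9.94). The tests were also run on simulated data in which few genes changed, all by a larger fold change than most of the 10 genes. That run does not check the scaling or the calls of small fold changes in these data. Alternatives were DESeq2 1.42.0, upper-quartile scaling or library size only, a minimum of 10 counts in every library or of 1 in total, a replicate block, leaving out each library, and limma 3.58.1 on log2 FPKM plus 1 or 0.1 (mean above 0.1 FPKM).

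Locations and exon lengths came from GENCODE M21, where all 10 identifiers were found, and promoters from RefSeq. The 10 genes and the lists were chosen with earlier results of these data known, and the motifs after matches were seen. Genes named beside the 10 are Lox, Loxl1, Ltbp4, Mfap2, Emilin1, listed genes past a log2 fold change of 1 with a mean above 5 CPM, the 3 nearest in pattern to Eln and to Fbln5, and genes that overlap them. Cell type markers, the lower listed Mfap genes, listed genes without a count, and genes named from a Gene Ontology term alone were chosen after their values were seen.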

Additional observations from a re-analysis of the deposited data

Results flagged for a closer look

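For the 10 genes and the ratios of the gene pairs, 28 groups of 4 libraries were checked by Dixon's test. It takes the gap to the nearest library over the range of the group, against the 95% critical value. By this test 2 values stood apart from their group, which chance alone gives in about 1 of 20 groups. Fbn2 was at 0.349 CPM in OEIRF7 replicate 1, with a gap of 0.92 of the group's range, and this rests on 9 counts against 4 or 5 in the other libraries of the group. Mfap5 was at 115 CPM in OEIRF7 replicate 3, with a gap of 0.936 of the range, and it was still above all 4 libraries labelled GFP.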

How the results depend on the processing

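Fbn1, Fbln1, Fbln5, Efemp1, Efemp2 and Mfap5 kept their direction and their call under all 16 alternatives run. Eln kept its direction and lost its call in DESeq2 (log2 fold change -0.44, adjusted p = 0.132), with library size only (-0.42, 0.0545), in limma on log2(FPKM + 1) (-0.34, 0.189) and on log2(FPKM + 0.1) (-0.35, 0.187), and without any 1 of 4 libraries, over a range of -0.57 to -0.24. Mfap4 passed with a minimum of 1 count in total (-0.18, edgeR adjusted p = 0.0373) and without GFP replicate 3 or 4, over a range of -0.23 to -0.086 when 1 library was left out. Fbln2, not called in any setting, ranged from -0.0094 to 0.044 when 1 library was left out and changed sign without OEIRF7 replicate 4. The number of the 10 genes called lower ran from 5 to 8, and that of genes called higher was 1 throughout. The 8 came without GFP replicate 3 and counted Fbn2, which passed the filter there through the remaining libraries labelled GFP. It is thus not a result about Fbn2. Without 1 library, 1 to 2 genes were lower past a log2 fold change of 1, and 1 to 2 by the limits of the study's methods. The added gene was Fbn2 by the first limit, and Fbn2 or Fbln1 by those of the methods. By CPM per kilobase, Fbln2 made up 62.7% of the summed level under the label GFP and 67.1% under OEIRF7. Where a call changed, the cause was not tested beyond the change of setting itself.

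Deviations from the group mean correlated at 0.0792, 0.0953, 0.138 and 0.104 between libraries of the same replicate number. Between different numbers they correlated at no more than 0.0476, so each number correlated best with itself. The labels do not say whether equal numbers are pairs, and the main test did not treat them as pairs. With the replicate block, edgeR called 8211 genes in place of 7969. Under the block Mfap4 passed (-0.16, adjusted p = 0.0109) and Eln had -0.42 (adjusted p = 0.000182). No other of the 9 genes changed its call with the block.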

Other observations

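Of the genes that the table lists under "elastic fiber assembly", 4 tested ones were neither among the 10 nor in a pathway list, and they did not move together. Tnxb, which encodes a tenascin of connective tissue, had a log2 fold change of 1.55 (edgeR adjusted p = 2.13e-08). Col3a1, a fibrillar collagen, had a log2 fold change of -0.53 (edgeR adjusted p = 6.52e-07), and Myh11, a smooth muscle myosin, of -0.98 (edgeR adjusted p = 0.000203). Atp7a, a copper transporter, was not called (log2 fold change 0.08, edgeR adjusted p = 0.219). Of the 6 pathway lists, the elastin-degrading proteases had the largest median log2 fold change (0.32 over 8 tested) and the ADAMTS and ADAMTS-like proteins the lowest (-0.26 over 8 tested), beside 0.00 over all tested genes.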
